A study of Homo sapiens with 24 samples.

Results

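Sites of N6-methyladenosine (m6A), the most common internal modification of mRNA, were examined in 10 genes that encode histone lysine methyltransferases: 4 KMT2 genes (KMT2A, KMT2B, KMT2C and KMT2D), 3 SETD genes (SETD1A, SETD1B and SETD2), NSD1, NSD3 and ASH1L. They were listed by name as 1 family of enzymes, with earlier results of these data known, and all 10 were found among the 20056 protein-coding gene spans of the reference. In m6A-seq, fragmented poly(A) RNA is precipitated with an antibody against m6A and sequenced, and a summit is the position at which a peak caller places the centre of an enriched stretch. In all, 9 of the 10 genes held a summit in at least 1 library, among 10287 protein-coding genes that did, and together they held 619 of the 155075 summits of the series. NSD1 held 0.

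The study used HepG2, an established human liver cancer cell line, and compared 4 stable lines made with lentiviral cassettes: METTL14 with the substitution R298P, METTL14 with the substitution D312A, wild-type METTL14 (WT), and EGFP, a fluorescent protein that served as the control without added METTL14. All lines carried a cassette and had been selected with puromycin, and the labels describe no removal of the cells' own METTL14. Each line had 3 biological replicates, with 1 immunoprecipitated and 1 input library each, which makes 24 samples. The values below come from the 12 immunoprecipitated libraries, for each of which the authors deposited 1 list of summits.

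METTL14 is the RNA-binding partner of METTL3, the subunit that transfers the methyl group to adenosine, and R298P is a substitution seen in tumours. The KMT2 and SETD1 enzymes methylate lysine 4 of histone H3 in complexes built on a shared core of WDR5, RBBP5, ASH2L and DPY30, and SETD2, NSD1, NSD3 and ASH1L methylate lysine 36 of the same histone. In mammalian cells METTL14 is known to recognise the trimethyl mark that SETD2 lays on lysine 36 along transcribed genes, which joins this family to the m6A writer. Most of these mRNAs are long, and long internal exons and the surroundings of stop codons are where m6A is usually found.

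The promoter windows of SETD1A and ASH1L are printed here because they were the only ones, among the 8 members with an entry in the promoter table used, in which summits lay. Each runs from 250 bases before to 30 bases after the annotated start (RefSeq, GRCh38.p14), is written 5′ to 3′ on the strand of the gene, and has GGAC and GGAT in capitals. GGAC is the core of the sequence in which m6A usually lies, and GGAT is shown only for comparison. SETD1A is on the plus strand at chr16:30957504-30957783 and ASH1L on the minus strand at chr1:155562774-155563053.
SETD1A promoter: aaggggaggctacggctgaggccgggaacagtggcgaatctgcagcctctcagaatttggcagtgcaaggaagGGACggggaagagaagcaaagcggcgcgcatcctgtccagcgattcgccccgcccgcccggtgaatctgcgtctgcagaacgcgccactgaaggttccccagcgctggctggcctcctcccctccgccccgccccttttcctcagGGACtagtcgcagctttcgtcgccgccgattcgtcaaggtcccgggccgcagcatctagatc
ASH1L promoter: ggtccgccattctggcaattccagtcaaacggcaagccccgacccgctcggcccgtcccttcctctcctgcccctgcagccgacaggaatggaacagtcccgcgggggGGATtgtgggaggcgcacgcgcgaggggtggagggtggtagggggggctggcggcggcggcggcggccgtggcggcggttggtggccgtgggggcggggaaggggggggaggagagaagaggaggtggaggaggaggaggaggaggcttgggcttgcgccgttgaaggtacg
The SETD1A window held GGAC 2 times and GGAT 0 times on its strand, and the ASH1L window GGAC 0 times and GGAT 1 time. GGAC stands on the gene strand in 66.1% of the 27305 promoter windows of 300 bases in the table, and in 87.4% on either strand (GTCC is its reverse complement). GGAT stands in 53.9% on the gene strand and in 76.8% on either strand (ATCC). A promoter counts once however many matches it holds, and GGAC and GGAT cannot overlap each other. In SETD1A, counted in bases from the start, summits lay at -174 in R298P replicate 1, at -233 in D312A replicate 1 and at -147 in WT replicate 1. Each summit was thus in a single library of its line. All 3 were in replicate 1 libraries, which stand apart in the names of the lists. These 3 lie outside the gene span and are not counted in the numbers below. In ASH1L, summits lay at 24 in R298P replicate 2, at -229 in R298P replicate 3 and at 26 in EGFP replicate 1. The ASH1L start used here, at 155562803, lies inside the gene span, which reaches 155563202. All 3 of these summits are therefore inside the span and are counted below. They fall in the span of the antisense gene ASH1L-AS1 as well, and since the lists carry no strand the genes cannot be told apart there. The sequences of the sites inside the genes are not printed, as no genome sequence was used here.

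The lists held between 8669 summits in D312A replicate 2 and 15373 in EGFP replicate 1, and D312A replicate 2 was also the lowest library for the 10 genes, with 33 summits. The labels and lists used here give no read numbers. The depth of each list is therefore unknown, no counting interval was set, and a summit that is missing from a list may lie below its threshold. The RNA level of these genes was not analysed here, so a lower number of summits with less RNA and one with less methylation cannot be told apart. Of the 10 hepatocyte markers each held a summit in at least 1 library, but only HNF4A and FOXA2 in all 12, while TTR did in 1, FGB in 5 and APOA1 in 7. Of the markers of other cell types 2 of 5 fibroblast, 3 of 5 blood and 2 of 4 endothelial genes held one, with ACTA2 in 11 libraries and CD14 in 10, and COL1A1, COL1A2, COL3A1, PTPRC, CD3E, VWF and KDR were at 0. The presence of summits therefore separated hepatocyte markers from the others only in part. METTL14 itself held 8.33 ± 2.08 summits in R298P, 7.0 ± 3.46 in D312A and 9.0 ± 2.0 in WT, against 1.0 ± 0 in EGFP (SD, n = 3 each). In the names of the lists, the replicate 1 libraries of all lines stand apart from the others. For this reason some differences between lines are also given for replicate 1 and for replicates 2 and 3 separately. They are those in the sums, in the spacing and, for R298P and WT, in single genes.

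KMT2D, which lays monomethyl marks on lysine 4 at enhancers, held the most summits of the 10 genes. It held 10, 12 and 13 in R298P, 10, 7 and 13 in D312A, 13, 12 and 16 in WT, and 13, 13 and 12 in EGFP. Its mean of 12 ± 2.22 summits per library (SD, n = 12) ranked 7 among the 10287 genes, whose median was 0.833. The highest value stood in WT replicate 3 and the lowest in D312A replicate 2, and each pair of lines overlapped.

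KMT2C, the closest relative of KMT2D and an enzyme of the same enhancer complex, held 5, 3 and 8 summits in R298P, 7, 6 and 9 in D312A, 8, 8 and 9 in WT, and 12, 7 and 7 in EGFP. Its mean was 7.42 ± 2.23 (SD, n = 12), rank 41. R298P replicate 2 was the lowest library and EGFP replicate 1 the highest. Part of KMT2C has near-identical copies elsewhere in the genome, and the placement of reads between such copies is not stated in the labels, so its summits are less certain than those of the other genes.

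SETD1B and SETD1A, the catalytic subunits of the complexes that lay trimethyl marks on lysine 4 at active promoters, differed in their mean number of summits by more than the SD of either. SETD1B held 7, 6 and 7 in R298P, 8, 5 and 5 in D312A, 7, 7 and 6 in WT, and 8, 8 and 4 in EGFP, with a mean of 6.5 ± 1.31 (SD, n = 12). SETD1A held 3, 4 and 4 in R298P, 5, 3 and 3 in D312A, 5, 4 and 4 in WT, and 6, 4 and 4 in EGFP, with a mean of 4.08 ± 0.9. Within both genes the lines overlapped, and the spread of SETD1B was widest in EGFP (SD 2.31).

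ASH1L, a lysine 36 methyltransferase of the trithorax group, was the most variable of the enzymes for that residue. It held 4, 7 and 9 summits in R298P, 6, 2 and 5 in D312A, 4, 5 and 7 in WT, and 7, 7 and 5 in EGFP (mean 5.67 ± 1.87, SD, n = 12). SETD2 held 6, 6 and 5 in R298P, 4, 4 and 5 in D312A, 4, 5 and 6 in WT, and 7, 4 and 5 in EGFP (mean 5.08 ± 0.996). R298P replicate 3 was the highest ASH1L library and D312A replicate 2 the lowest, while SETD2 stayed between 4 and 7.

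KMT2A and KMT2B, the paralogues bound by menin, held fewer than KMT2C and KMT2D. KMT2A, the gene rearranged in many leukaemias, held 4, 4 and 6 in R298P, 3, 1 and 4 in D312A, 4, 4 and 7 in WT, and 4, 6 and 6 in EGFP (mean 4.42 ± 1.62, SD, n = 12). KMT2B held 3, 5 and 4 in R298P, 4, 3 and 4 in D312A, 4, 3 and 3 in WT, and 3 in each EGFP library (mean 3.5 ± 0.674). KMT2B thus stayed between 3 and 5 in all 12 libraries, and KMT2A between 1 and 7.

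Among the NSD enzymes, which lay dimethyl marks on lysine 36, NSD3 held 2, 2 and 4 summits in R298P, 2, 2 and 3 in D312A, 3, 4 and 4 in WT, and 2, 4 and 3 in EGFP, with a mean of 2.92 ± 0.9 (SD, n = 12). NSD1 (hg38, chromosome 5, 177131798 to 177300213) held 0 in each of the 12 lists used here, and of its neighbours FGFR4 held 7 summits over the 12 lists, LMAN2 6, RAB24 1 and PRELID1 0. NSD2, the third member of this group and not among the 10 genes, held 2.83 on average. No comparison between lines could be made for NSD1.

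**Figure D1:**
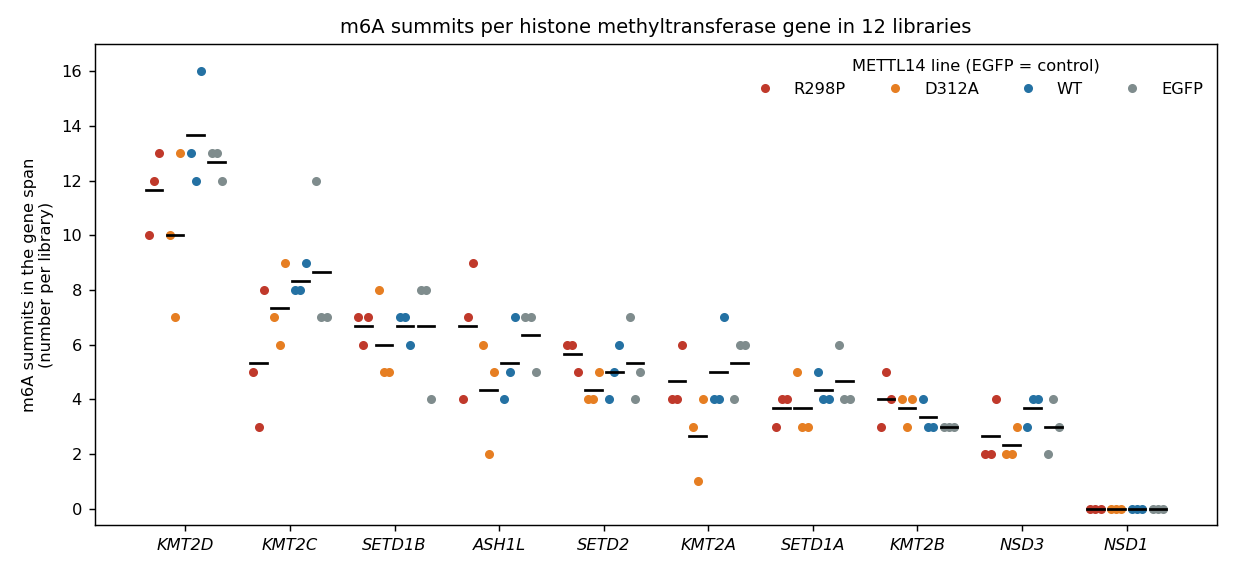
Number of m6A summits in each gene span (vertical axis, summits per library) for the 10 genes, ordered by their mean; each point is 1 library, the lines stand in the order R298P, D312A, WT and EGFP, and bars are means of 3 libraries. KMT2D stands between 7 and 16 summits, the other genes with summits between 1 and 12, and NSD1 at 0, and within each gene the points of the 4 lines overlap.

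In the order of the means, KMT2D stood above KMT2C by more than the SD of either, although their ranges met at 7 to 12 summits. Every other step between neighbours in that order, from KMT2C through SETD1B, ASH1L, SETD2, KMT2A, SETD1A and KMT2B to NSD3, was smaller than the SD over libraries of both genes. The genes differ in length, and per 100 kb of gene span the order changed. KMT2D held 28.7 summits per 100 kb, KMT2B 16.8, SETD1B 15.3 and SETD1A 15.2, whereas KMT2A held 4.89, SETD2 3.43, NSD3 2.59, ASH1L 2.49 and KMT2C 2.46. The spans include introns, and exon lengths were not used here, so these densities follow the share of a span that is intron as well as the number of sites.

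Summits were joined into regions wherever neighbours, over all 12 libraries together, lay within 100 nt, and regions less than 1000 nt apart were grouped as a stretch. The 9 genes held 107 regions in 47 stretches. In all 12 libraries 15 of the 107 regions (14.0%) were present, against 9.9% of the 34206 other regions, and 23 (21.5%) were present in 1 library only, against 35.8%. A region of these genes was held by a median of 5 libraries, and another region by 3. These shares are given as a description, because regions of one gene share their RNA.

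**Figure D2:**
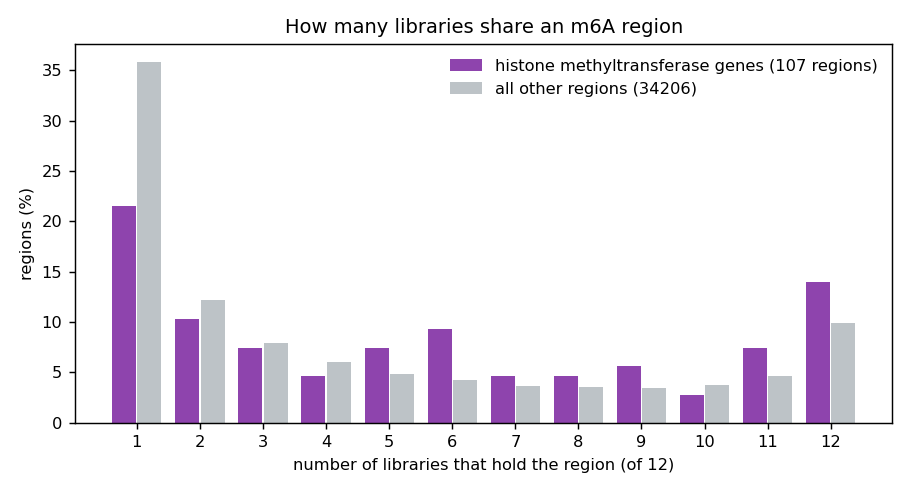
Share of regions (vertical axis, percent) by the number of libraries that hold them (horizontal axis, 1 to 12), for the 107 regions in the histone methyltransferase genes beside the 34206 others. At 1 library the bar of these genes stands at 21.5% and that of the others at 35.8%, and at 12 libraries at 14.0% and 9.9%.

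In KMT2D (hg38, chromosome 12, 49018978 to 49060794, minus strand) 24 regions formed 8 stretches, and 4 regions were present in all 12 libraries, at 49027127 to 49027153, 49038157 to 49038191, 49038657 to 49038693 and 49051544 to 49051571. The last of these had the highest median value of the gene, 31.2 over 12 libraries, and its highest median percentile within the lists, 96.1. The summit value is the authors' −log10 p or q value. Medians of it take values from several lists and are a description, while percentiles were taken within each list. In each library that region or another KMT2D summit ranked at or above percentile 89.3 of that library's list. KMT2D summits lay at a median of 67.0% of the span along transcription, and 11.1% of them in its last 5 kb.

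KMT2C (chromosome 7, 152134925 to 152436003, minus strand) held 17 regions in 7 stretches, all far from its start, the nearest summit lying 187740 nt into the span. Its only region in all 12 libraries was at 152148602 to 152148693, and regions at 152163462 to 152163485 and 152248243 to 152248263 were each present in 11. The values of the constant region were moderate, with a median of 12.3 and a median percentile of 43.4 within the lists. The median KMT2C summit lay at 85.9% of the span.

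SETD1B (chromosome 12, 121790155 to 121832656), with 10 regions in 4 stretches, carried the summit of highest value among the 10 genes in 9 of the 12 libraries. KMT2B was higher in R298P replicate 1, KMT2D in D312A replicate 2 and SETD1A in EGFP replicate 3. Its best summit in each library ranked between percentiles 95 and 99.9 of the list, with a median of 99.1. The regions at 121810487 to 121810517 and 121823707 to 121823732 were present in all 12 libraries, with median values of 35.2 and 31.3. SETD1A (chromosome 16, 30957754 to 30984664, plus strand) held 7 regions in 2 stretches, of which those at 30964988 to 30965117 and 30965879 to 30965895 were present in all 12 libraries, and the one at 30980086 to 30980112 in 11, all but R298P replicate 2.

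KMT2B (chromosome 19, 35718003 to 35738878, plus strand) had its 7 regions in 2 stretches, one near the start of the span and one beyond its middle. Those at 35720304 to 35720331 and 35732511 to 35732586 were present in all 12 libraries, with median values of 24.4 and 27.9. KMT2A (chromosome 11, 118436492 to 118526832, plus strand) was the only gene with summits that had no region in all 12 libraries; its most shared one, at 118474001 to 118474006, was present in 11, all but WT replicate 1. Of the 53 KMT2A summits 15 (28.3%) lay in the last 5 kb, and these fall in the span of the antisense gene TTC36-AS1 as well.

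SETD2 (chromosome 3, 47016436 to 47164840, minus strand) had 10 regions spread over 7 stretches. The one nearest its end, at 47017083 to 47017092 and 0.652 kb from the end of the span, was present in all 12 libraries within 10 nt and had a median value of 24.6. A second constant region lay at 47084065 to 47084164. NSD3 (chromosome 8, 38269704 to 38382271) had 1 constant region among 5, at 38347730 to 38347855, and ASH1L (chromosome 1, 155335268 to 155563202, minus strand) 1 among 13, at 155521195 to 155521220, 41994.5 nt into the span at its midpoint.

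**Figure D3:**
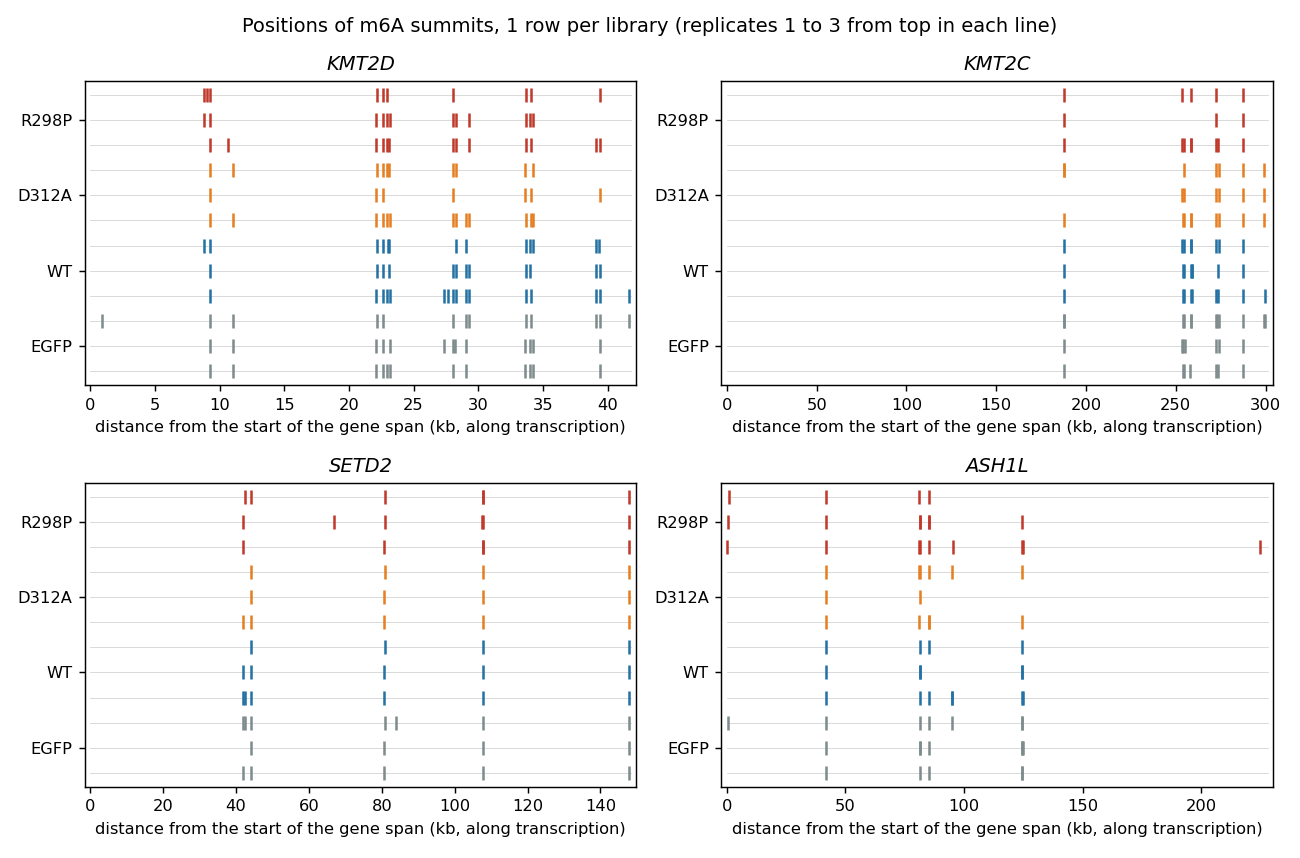
Positions of the summits of KMT2D, KMT2C, SETD2 and ASH1L along each gene span (horizontal axis, kb from the start of the span along transcription), with 1 row for each library and replicates 1 to 3 from the top in each line. KMT2D summits fill 8 stretches, the first KMT2C summit lies 187740 nt into the span, and SETD2 and ASH1L summits form thin columns, several of which run through every row.

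The comparisons of lines asked whether expression of R298P, D312A or wild-type METTL14 changed the number of sites in these genes. The 10 genes together held 44, 49 and 60 summits in R298P, 49, 33 and 51 in D312A, 52, 52 and 62 in WT, and 62, 56 and 49 in EGFP. The means were 51 ± 8.19 in R298P, 44.3 ± 9.87 in D312A, 55.3 ± 5.77 in WT and 55.7 ± 6.51 in EGFP (SD, n = 3 each), and all lines overlapped except D312A with WT, where the highest D312A library, with 51, stood 1 summit below the lowest WT library. As a share of all summits the lines were close, at 0.409% ± 0.0366 in R298P, 0.397% ± 0.0161 in D312A, 0.391% ± 0.0345 in WT and 0.398% ± 0.0097 in EGFP (SD, n = 3 each), and these shares differed by less than the spread between replicates. R298P minus WT was -4.33 summits, -8 in replicate 1 and -2.5 in replicates 2 and 3, and D312A minus WT was -11, -3 and -15. In the same order, R298P minus EGFP was -4.67, -18 and 2, and R298P minus D312A was 6.67, -5 and 12.5. D312A minus EGFP was -11.3, -13 and -10.5, and WT minus EGFP was -0.333, -10 and 4.5. In 3 of the 6 pairs of lines the sign thus differed between replicate 1 and replicates 2 and 3. No test was made on these sums, since the genes were chosen together.

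For single genes, R298P minus WT ran from a difference of -3 summits in KMT2C and -2 in KMT2D to 1.33 in ASH1L, and none of the 9 genes with summits had lines that did not overlap, against 0.721% of 9294 genes with R298P above WT and 3.3% with R298P below it. In KMT2C R298P held 5.33 ± 2.52 summits and WT 8.33 ± 0.577 (SD, n = 3 each, exact permutation test, two-sided, p = 0.3). R298P was lower in each of the 3 same-numbered pairs, a pairing that is uncertain for replicates 2 and 3. The difference was -3 in replicate 1 as well as in replicates 2 and 3. In the same order, R298P minus WT was -3 and -1.5 in KMT2D, 0 and 2 in ASH1L and -1 and 1.5 in KMT2B. It was 2 and 0 in SETD2, -2 and 0 in SETD1A and -1 and -1 in NSD3. In KMT2A it was 0 and -0.5, and in SETD1B 0 and 0. In the other 5 pairs of lines too, the libraries of each gene overlapped. Genes without overlap made up 0.783% of all genes with R298P above EGFP and 3.1% with R298P below it, 0.0884% with D312A above WT and 3.44% below, 0.153% with D312A above EGFP and 3.16% below, 2.13% with R298P above D312A and 0.573% below, and 0.821% with WT above EGFP and 0.597% below. The lowest exact p over the 6 pairs of lines and 9 genes was 0.2, where 3 libraries against 3 cannot go below 0.1, and adjusted over all genes every one was 1. The sizes of these differences rested on single libraries and on list length. The difference in ASH1L was 0.167 without R298P replicate 3 and 0.333 without the summits that lie in another gene span as well. The difference in KMT2C was -4.33 without R298P replicate 3, -1.83 without R298P replicate 2 and -1.67 with lists of equal length, and that in KMT2D was -0.833 without WT replicate 3 and 0.667 with lists of equal length. SETD1B had the same mean of 6.67 in R298P and WT. Of all genes, 0 passed an adjusted p of 0.05 in any pair (0%), and 374 reached the smallest p in R298P against WT.

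Set against the other 9 libraries, 1 line can reach lower p-values, and 0 of 10287 genes passed after adjustment. KMT2A held 2.67 summits on average in D312A and 5.0 in the other 9 libraries, a difference of -2.33 (exact permutation test over 220 choices of 3 libraries, two-sided, p = 0.0409, adjusted p over all genes = 1). It was the only one of the 9 genes with an exact p under 0.05 in any line, where 3.17% of all genes had one in R298P, 1.98% in D312A, 2.21% in WT and 2.37% in EGFP. Replicate 1 gave a difference of -1, and replicates 2 and 3 one of -3. Without D312A replicate 2, the shortest list, the exact p was 0.218. KMT2C in R298P (5.33 summits, against 8.11 in the other 9 libraries, exact p = 0.0773) and KMT2D in D312A (10 summits, against 12.7 in the others, exact p = 0.123) were the next lowest.

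Single regions were then compared, where a region is called gained in one line against another if it was present in 3 of 3 of its libraries and 0 of 3 of the other, and lost in the opposite case. No single region can pass a test with 3 libraries against 3. In R298P against WT, SETD2 gained 1 region and KMT2D lost 1, of 13 regions of the 10 genes found in exactly 3 of these 6 libraries. Over all such regions of the series, inside and outside gene spans, 6.65% were gained and 16.1% lost. With only 13 regions, 1 call in each direction cannot be told apart from these shares.

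The SETD2 region gained in R298P (47056955 to 47056984) held summits at 47056955, 47056971 and 47056984, with values of 7.7, 12 and 13.7 in replicates 1, 2 and 3, and 0 of the 9 libraries of the other lines held a summit there. Over the whole series 2.63% of the 2703 regions in 3 libraries were present in R298P alone. A neighbouring region, 144 nt away at 47057128 to 47057175, was present in 11 libraries, all but R298P replicate 2, so 2 of the 3 R298P libraries carried both. R298P replicate 2 alone held a summit 164 nt beyond that region, at 47057339. Each R298P library thus held summits in 2 of these 3 regions. With summits joined within 200 nt the 3 became 1 region and the gain was not called. It was also not called with summits of a value of at least 10 or with lists of equal length.

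The KMT2D region lost in R298P (49031730 to 49031760) was present in 0 R298P libraries, in 1 D312A, 3 WT and 3 EGFP libraries, with values between 12 and 16 in the 7 libraries that held it. The region next to it, 199 nt away at 49031490 to 49031531, was present in 2 R298P, 1 D312A, 2 WT and 1 EGFP libraries. R298P replicate 1 held a summit in neither of them. This call too was not made with summits joined within 200 nt, nor with lists of equal length.

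Regions in SETD2 (47120661 to 47120761) and NSD3 (38329610 to 38329647) were present in 1 of 3 R298P libraries and in 9 of 9 others. The R298P library with the SETD2 region was replicate 1, with a value of 5.72, and the one with the NSD3 region was replicate 3, with 10.5. Such a pattern was seen in R298P for 11.6% of the 1272 regions found in as many libraries, and the family had 3 regions found in as many libraries, of which these are 2. No test was made of them.

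D312A against WT gave 1 gained and 2 lost regions of 13, where 1.02% were gained and 11.6% lost over all such regions. The gained region lay in KMT2C (152136819 to 152136834), 1.9 kb from the end of the span, with values of 13.4, 18.7 and 14.7 in the 3 D312A libraries, and was also held by EGFP replicate 1 but by 0 R298P libraries. The lost ones lay in KMT2D (49021668 to 49021685) and ASH1L (155438377 to 155438632). D312A against EGFP gave 1 gained region, in KMT2B (35719926 to 35719937), which 2 WT libraries also held, and 2 lost ones, of 15 (1.54% and 10.8% over all such regions). These lost ones were the same ASH1L region and 1 in KMT2A (118522080 to 118522127). The KMT2A one lies in the span of the antisense gene TTC36-AS1 as well, and the lists carry no strand. The KMT2C and KMT2B calls were the only ones in these 2 comparisons that held under each of the 4 other settings of merging, value and list length.

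R298P against EGFP gave 1 gained region, the SETD2 region above, and 4 lost, of 17 (7.35% and 14.6% over all such regions). The lost ones lay in KMT2A (118522080 to 118522127), KMT2C and, for 2 of them, KMT2D. This KMT2A region lies in the span of TTC36-AS1 as well, so the 2 genes cannot be told apart there. R298P against D312A gave 2 gained, in KMT2A (118505306 to 118505360) and SETD2, and 3 lost, in KMT2B and, for 2 of them, KMT2C, of 15 (12.9% and 3.19%). WT against EGFP gave 0 gained and 1 lost, in KMT2D (49049769 to 49049789), of 12 (4.09% and 2.56%). The comparisons share libraries, so a region such as the KMT2D one at 49031730, lost against WT and against EGFP, is not 2 separate observations on R298P.

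**Figure D4:**
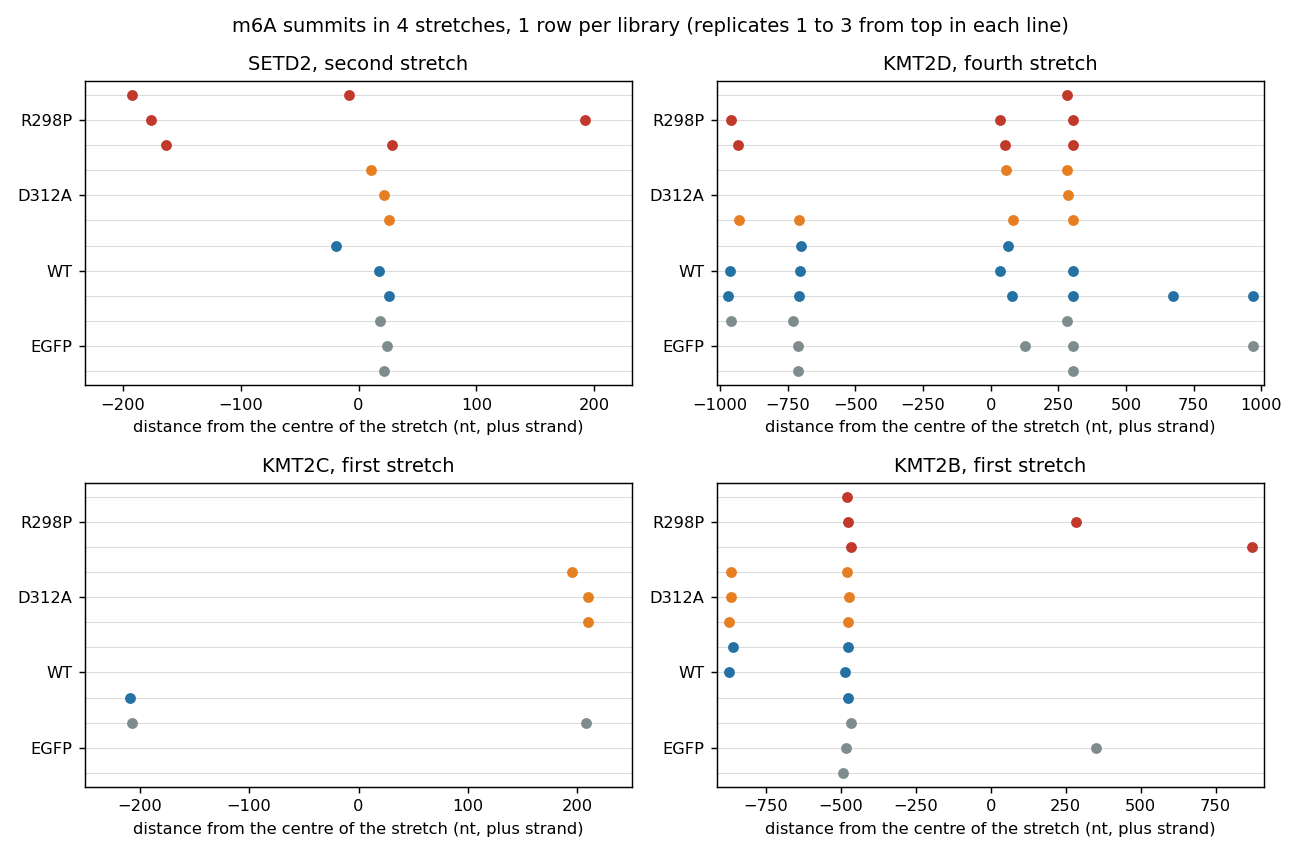
Summits in 4 stretches that hold called regions (horizontal axis, nt from the centre of the stretch on the plus strand), with 1 row for each library and replicates 1 to 3 from the top in each line. The 3 R298P points at the left of the SETD2 panel are the gained region; the second KMT2D column from the left has 0 R298P points; the right column of KMT2C and the left column of KMT2B each have 3 D312A points and 0 R298P points.

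The many sites of these genes were not evenly spaced. Over 12 libraries 511 pairs of neighbouring summits lay at a median distance of 3507 nt, with the closest at 124 nt, against a median of 689 nt in the other protein-coding genes. Distances were taken along the genome, introns included, so they are not distances along the mRNA. Those of 500 nt or less made up 31.1% in the family and 41.4% elsewhere. KMT2D (median 519 nt), KMT2B (583.5 nt), SETD1B (669 nt) and SETD1A (825 nt) were close to the other genes, while ASH1L (9955 nt), KMT2C (11773 nt), KMT2A (15716 nt), NSD3 (18126 nt) and SETD2 (26970 nt) had wide gaps between thin stretches. The stretches covered 11.9% of the KMT2B span and 11.6% of that of KMT2D, but 0.868% of SETD2 and 0.9% of ASH1L.

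**Figure D5:**
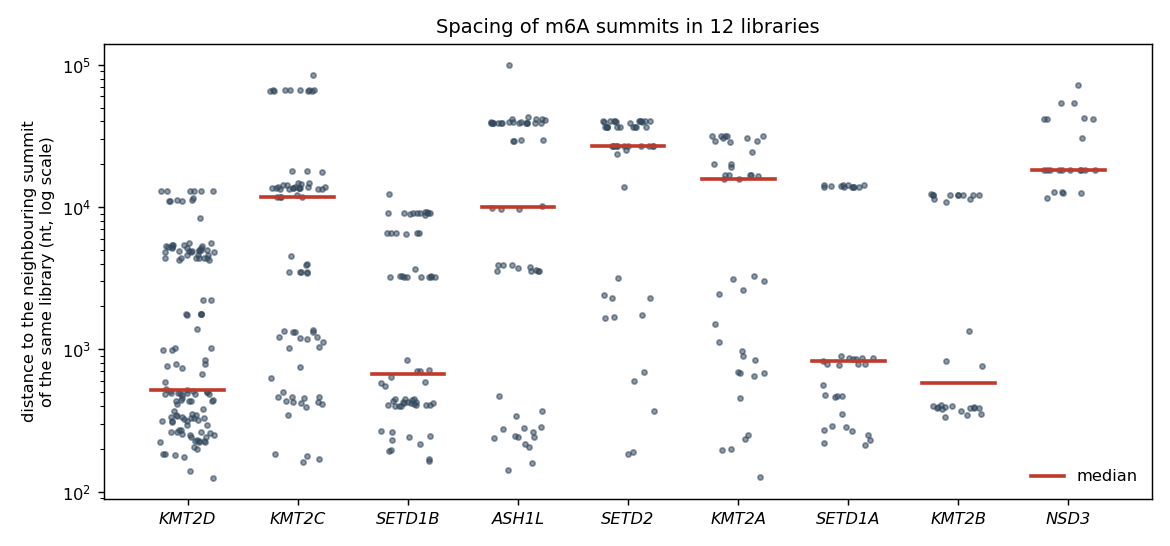
Distance along the genome, introns included, from each summit to the neighbouring summit of the same library (vertical axis, nt on a log scale) for the 9 genes with summits. Each point is 1 pair and bars are medians. Points fall into separate bands, and medians run from 519 nt in KMT2D to 26970 nt in SETD2.

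By library the median distance was 5316, 3392 and 3282 nt in R298P, 4323, 7347 and 3708 nt in D312A, 3202, 3239 and 2230 nt in WT, and 3246, 1368 and 3612 nt in EGFP. R298P (3997 ± 1144 nt) and WT (2890 ± 572 nt, SD, n = 3 each) did not overlap, nor did D312A and WT or D312A and EGFP. Medians by library were not computed for the other genes, so whether this is particular to the family was not tested. D312A replicate 2, with the widest median and the shortest list, gave only 24 distances. The difference of R298P minus WT was 1106 nt over all replicates, 2114 nt in replicate 1 and 602.5 nt in replicates 2 and 3. With each list reduced to its best 8669 summits the difference was -3087 nt, so its sign turned under that setting. D312A minus WT was 2236 nt, D312A minus EGFP 2384 nt and R298P minus EGFP 1255 nt. In replicate 1 these were 1121, 1077 and 2070 nt, and in replicates 2 and 3 they were 2793, 3037.5 and 847 nt. No p-value is given for a spacing taken over genes that were chosen together.

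Where 2 regions lay within 300 nt of each other, a library often held only 1 of them. There were 35 such pairs in the family, and in 73 of the 314 cases in which a library held either region it held both (23.2%, against 30.2% over the other 7759 pairs). In 8 of the 35 pairs (22.9%, against 24.0% elsewhere) no library held both. In KMT2C, the region at 152162117 was present in 6 libraries and the one at 152162244 in 4, with 0 shared. In KMT2D the regions at 49026691 and 49026798 were present in 6 and 5 libraries with 0 shared, while those at 49037593 and 49037800 were both present in 7. These shares are a description, and the placement of a summit by the peak caller within a broad enriched stretch was not tested.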

How the data were processed

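m6A was measured in 12 immunoprecipitated libraries of 4 HepG2 lines, grouped by their titles. The submitters' processing notes name STAR 2.7.9a, Trim Galore 0.4.4, edgeR, Picard, FastQC 0.11.2, featureCounts, bedtools 2.17.0, HOMER 4.9, MACS2 2.1.2 and the genome build hg38, without their roles or settings. Each deposited list holds 1 library's summits with a value that, from its range, is the −log10 of a p or q value of the authors' peak caller. The 10 genes and the lists of related genes and markers were chosen with earlier results of these data known. All 10 genes were named, and of the 58 related genes those with the highest or a mean of 0 summits or with a region called between R298P and WT. A summit was counted in a gene when its 1-based position lay inside the RefSeq span (GRCh38.p14), overlaps with other spans included. Regions joined summits within 100 nt; stretches (1000 nt) and pairs of regions within 300 nt were set after the data were seen. Lines were compared with two-sided exact permutation tests over 20 assignments of 3 and 3 libraries, or 220 choices of 3 of 12, for every gene, with Benjamini-Hochberg adjustment over all genes; the steps were tested on simulated data. Same-numbered R298P and WT libraries had correlations of 0.482, 0.186 and 0.216 in their deviations in summit number over genes. Differently numbered ones ran from -0.353 to 0.202. The highest of these, R298P replicate 2 with WT replicate 3, stood above the same-numbered pair of replicate 2. The numbers were taken as pairing R298P and WT, which is uncertain for replicates 2 and 3. Those of other pairs of lines were not taken so. The authors' deposited table of input RNA could not be paired with gene symbols and its 18 columns per library carry no sample label, so the planned look at the members' expression was not run. Alternatives were joining within 50 or 200 nt, values of at least 10, lists of equal length (8669 summits), only summits in no other gene span, replicates 2 and 3 alone, each replicate left out and a replicate block. Python 3.11.15, NumPy 2.4.6, pandas 2.3.3 and Matplotlib 3.10.9 were used.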

Additional observations from a re-analysis of the deposited data

How the results depend on the processing

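Of the R298P and WT calls (1 region gained, 1 lost), 0 gained and 0 lost were made with joining within 200 nt, where 4.94% and 17.4% of all such regions were called. With values of at least 10 there were 0 gained and 2 lost (8.12% and 18% of all such regions). With lists of equal length there were 1 gained and 1 lost (12.5% and 12.5% of all such regions), but not the same ones. The gained region then lay in KMT2A (from 118505358) and the lost one in SETD2 (from 47120731). In replicates 2 and 3 alone there were 3 gained and 4 lost (18.9% and 30.6% of all such regions). Leaving out 1 library, which loosens the rule for its line, gave 1 to 3 gained and 1 to 6 lost. There were 6 lost without R298P replicate 3 and 3 gained without WT replicate 3. Shares over all regions were not computed for the left-out libraries, nor for other pairs of lines under the other settings. The 5 calls of R298P against EGFP and the 5 of R298P against D312A were 2 and 2 with 200 nt. The 3 calls of D312A against WT were 1 with 200 nt, with values of at least 10 and with equal lists, and the 1 call of WT against EGFP was 0 with equal lists. The spacing difference of 1106 nt was -3087 nt with equal lists and 447 to 1464 nt with 1 library left out. R298P minus WT turned in KMT2A (-0.333) to 1 with equal lists and 0.667 without WT replicate 3 (-1 to 0.667 over the 6 left out), in KMT2D (-2) to 0.667 with equal lists, and in SETD2 (0.667) to -1.33 with equal lists and with values of at least 10. In SETD1A (-0.667) the difference was -1.67 with values of at least 10. The exact permutation test (two-sided, not adjusted over genes) gave p = 0.1 there, the smallest possible. The sum of the genes (-4.33) was -0.667 with equal lists and ran from -8.83 to -0.833 with 1 library left out. KMT2A in D312A against the other 9 libraries had an exact p of 0.0182 to 0.218 with 1 D312A library left out, 0.205 without the summits shared with TTC36-AS1 and 0.141 with equal lists. Causes of these changes were not tested. With the replicate block, pairing R298P and WT by number, the sum (-4.33) and the spacing difference (1106 nt) keep their values by construction. The block is therefore no check of their size. It was not applied to the calls of regions, and the smallest p of 3 pairs is 0.25. The alternatives planned for the authors' table were not run.

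Depth behind each list is unknown, a list's length limits how many summits a gene can show, and no test of 3 libraries against 3 can go below 0.1. Spans do not separate exons, introns and antisense genes.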

Other observations

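By their median, other genes of histone methylation held fewer summits than the 10 genes. Of 58 such genes 54 held a summit in at least 1 library and 26 in all 12. Their median of the mean number per library was 1.21, against 4.75 over the 10 genes. The sets overlapped, since the mean of NCOA6 (5.17) stood above that of SETD2 (5.08) and of the members below it. Gene length was not taken into account. Among subunits of the KMT2 and COMPASS complexes, 15 of 16 held a summit and 8 did in all 12 libraries. NCOA6, a coactivator subunit of the KMT2C and KMT2D complexes, held the most of all 58, with 4.33 ± 1.53 summits in R298P, 4.33 ± 0.577 in D312A, 5.67 ± 0.577 in WT and 6.33 ± 0.577 in EGFP (SD, n = 3 each). DPY30, a core subunit, held 0, as did the methyltransferases EZH1 and SMYD2 and the demethylase KDM1B. Other lysine methyltransferases held a summit in 20 of 22 genes and demethylases in 19 of 20, with 7 and 11 of them in all 12 libraries.

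The 58 genes held 211 regions, of which 22 were present in exactly 3 of the 6 R298P and WT libraries. Of these 22, 0 were gained and 4 lost in R298P, where over the whole series 6.65% of such regions were gained and 16.1% lost. NSD2, the relative of NSD1 and NSD3, lost the region at hg38 chromosome 4, 1978796 to 1978822, which was present in 0 R298P, 2 D312A, 3 WT and 0 EGFP libraries, and its mean number of summits was 2.67 ± 0.577 with R298P, 2 ± 1 with D312A, 4.67 ± 0.577 with WT and 2 ± 1 with EGFP (SD, n = 3 each). JMJD1C, a demethylase-family gene, lost one (chromosome 10, 63215054 to 63215071) that was present in 0 R298P, 1 D312A, 3 WT and 3 EGFP libraries. KDM8 (chromosome 16, 27221253 to 27221325) and HCFC2 (chromosome 12, 104103122 to 104103140) each had a region present in 0 R298P, 1 D312A, 3 WT and 1 EGFP libraries. These single regions were not tested.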
